A study of Homo sapiens with 13 samples.

Results

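Libraries of HuT78 cells numbered replicate 1 or 2 were compared with libraries of the same cells numbered replicate 3 or 4, across all genes and with treatment held constant. The sets were formed from the replicate numbers in the sample titles: numbers 1 and 2 gave 6 libraries and numbers 3 and 4 gave 7, which together are all 13 of the series. HuT78 is a single established human line of malignant T cells, from a case of Sézary syndrome, in which cutaneous T cell lymphoma cells circulate in the blood. All cells were exposed for 72 h to an agent or to the vehicle DMSO. Numbers 1 and 2 held 2 libraries with chaetocin at 10 nM, 1 with F5446 at 10 nM, 2 with romidepsin at 1 µM and 1 with DMSO. Numbers 3 and 4 held 2 libraries with chaetocin, 2 with F5446, 2 with romidepsin and 1 with DMSO, at the same doses and time. Chaetocin, from a fungus, inhibits methyltransferases that act on lysine 9 of histone H3 (H3K9), such as SUV39H1, F5446 is a code-named compound, and romidepsin is a histone deacetylase inhibitor. The labels do not say what the numbers stand for (culture, harvest, extraction or library preparation) or whether replicates are separate cultures, so these cannot be told apart, and a p-value speaks of the spread among these libraries, which may be technical.

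The question was which cell-state programmes differ between the sets. A growing lymphoma cell draws on glycolysis and on respiration for energy, and on ribosome and protein synthesis for mass. When oxygen is short, hypoxia-inducible factors bind a short motif in promoters and raise the transcripts of glycolytic enzymes, prolyl hydroxylases and mitophagy receptors. Immediate early genes such as the NR4A and EGR families are transcribed within a short time of a signal, and their transcripts are short-lived. Quiescence-linked genes and cell cycle inhibitors are held low in dividing cells. In bulk RNA, fewer cells of a kind and less RNA per cell cannot be told apart.

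Total counts ranged from 19901052 to 30816188 in numbers 1 and 2 and from 19951198 to 30494499 in numbers 3 and 4. Chaetocin replicate 3, of numbers 3 and 4, stood apart from the other libraries: mitochondrially encoded genes took 15.9% of its counts and its 100 most abundant genes 36.7%, and it had the fewest genes with a count, 16085. Values are therefore given with and without it where it changes a result. The T cell identity of the line was read from CD3E (176 to 212 CPM in numbers 1 and 2, against 196 to 267 CPM in numbers 3 and 4), CD4 and TRAC, which were present in every library, and from CD7, a T cell antigen that Sézary cells often lose, which stayed between 0 and 0.174 CPM in numbers 1 and 2 and between 0 and 0.557 CPM in numbers 3 and 4. CPM are counts scaled to the normalized library size.

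Of 45744 genes counted, 17252 had enough reads to be tested, and 2719 of them, 15.8%, passed an adjusted p of 0.05 between the sets, 1327 higher in numbers 1 and 2 (7.69% of genes tested) and 1392 lower (8.07%). Most differences were small. Among the called genes the median absolute log2 fold change was 0.46, and 255 exceeded 1 on that scale, 132 of them higher and 123 lower in numbers 1 and 2. The median over all genes tested was 0.03 after scaling, which centres the fold changes near 0. In the same fit a joint test of the 3 treatment terms called 51 genes. Without chaetocin replicate 3, 2898 of 17027 genes were called (17.0%), 1416 higher (8.32%) and 1482 lower (8.70%), and 2445 genes were called in the same direction in both fits. The libraries of the sets did not overlap at all for 947 genes (5.49%), of which 389 were higher in numbers 1 and 2 (2.25%) and 558 were lower (3.23%).

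The genes that were lower in numbers 1 and 2 by the widest margins included the 3 NR4A nuclear receptors and, from the glycolysis and hypoxia lists, ALDOC, PFKFB4 and ANKRD37. NR4A1, an orphan nuclear receptor induced by T cell receptor signals, had 2.59, 2.85 and 3.57 CPM in numbers 1 and 2 (lowest, median and highest), against 10.8, 20.0 and 29.2 CPM in numbers 3 and 4, a log2 fold change of -2.82 (SE 0.19, adjusted p = 1.7e-11). The sets were far apart: the highest library of numbers 1 and 2 lay well under romidepsin replicate 4, the lowest of numbers 3 and 4. Its relatives NR4A3 (-1.90, SE 0.15) and NR4A2 (-1.71, SE 0.18) were also lower, again without overlap. TSC22D3, the glucocorticoid-induced leucine zipper gene, had 9.04, 9.76 and 10.4 CPM in numbers 1 and 2 and 22.4, 29.3 and 38.2 CPM in numbers 3 and 4. It was lower by a log2 fold change of -1.595 (SE 0.13, adjusted p = 2.6e-10), and the libraries of numbers 1 and 2 lay close together. PNRC1, a nuclear receptor coactivator, had 73.4, 89.6 and 98.4 CPM in numbers 1 and 2, against 161, 230 and 289 CPM in numbers 3 and 4 (-1.30, SE 0.09, adjusted p = 1.2e-11). Also among the 15 largest were PTCH1, the Hedgehog receptor (-1.36), SPRY1, an inhibitor of receptor tyrosine kinase signalling (-1.34), TIMP2, a metalloproteinase inhibitor (-1.44), HSPG2, which encodes perlecan (-1.72), COPG2, a coatomer subunit (-1.32), CFAP45 (-1.49) and CABP4, a calcium-binding protein (-2.33). The call for CABP4 was lost without DMSO replicate 4 (adjusted p = 0.051). The gene named AC129492.1 in the table, whose identifier ENSG00000179094 carries the symbol PER1 (a circadian repressor that glucocorticoids induce) in the name table used here, had 73.5, 85.8 and 89.7 CPM in numbers 1 and 2 and 159, 182 and 209 CPM in numbers 3 and 4 (-1.11, SE 0.08). It was chosen after its values were seen.

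The genes that were higher in numbers 1 and 2 by the widest margins did not belong to a single listed programme. EIF5, which encodes the GTPase-activating translation initiation factor, had 222, 280 and 334 CPM in numbers 1 and 2, against 103, 116 and 150 CPM in numbers 3 and 4 (log2 fold change 1.19, SE 0.10, adjusted p = 7.4e-09). CMPK2, an interferon-inducible mitochondrial nucleotide kinase, had 34.7, 59.3 and 82.4 CPM in numbers 1 and 2 and 11.96, 22.3 and 30.1 CPM in numbers 3 and 4 (1.43, SE 0.11, adjusted p = 1.2e-10). FBXO9, an F-box protein of a ubiquitin ligase, had 46.3, 55.3 and 73.5 CPM in numbers 1 and 2, against 17.0, 26.3 and 27.2 CPM in numbers 3 and 4 (1.25, SE 0.12). For none of these 3 genes did the sets overlap. MRPL1, a mitochondrial ribosomal protein gene, was higher by 1.53 (SE 0.20), DNAJC5B, a J-domain co-chaperone, by 1.58 (SE 0.15), MEOX1, a homeobox gene, by 1.598 (SE 0.20), IL17RB, a receptor for interleukin 25, by 1.24 (SE 0.26) and DIO2, the deiodinase that activates thyroid hormone, by 1.85 (SE 0.39). The call for DIO2 was lost without F5446 replicate 2 (adjusted p = 0.051). MKKS, WDR81, PKIG (a protein kinase inhibitor), TNS3 (a focal adhesion protein), CTNS (the lysosomal cystine transporter), AC019069.1 and NBPF1 completed the 15, between 1.15 and 1.34. NBPF1 belongs to a family of near-identical copies, so its counts are uncertain.

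**Figure D1:**
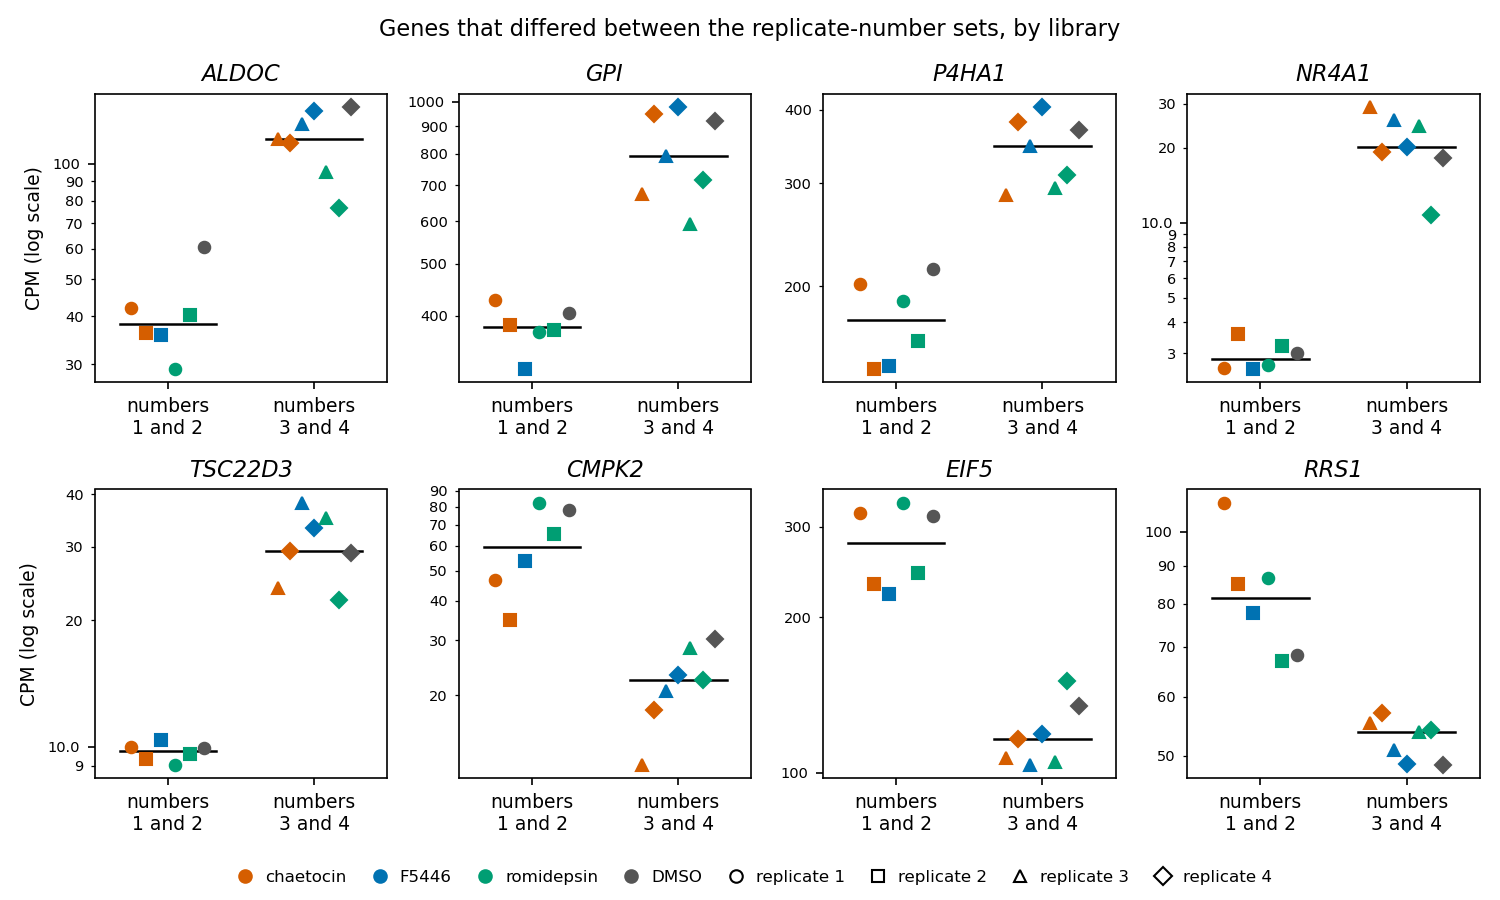
CPM of 8 genes on a log axis in each of 13 libraries, numbers 1 and 2 at the left and numbers 3 and 4 at the right of each panel, coloured by treatment and shaped by replicate number, with the set median as a bar. ALDOC, GPI, P4HA1, NR4A1 and TSC22D3 are lower and CMPK2, EIF5 and RRS1 higher in every library of numbers 1 and 2, whatever the treatment.

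Glycolytic transcripts were lower in numbers 1 and 2. Of 22 genes of the pathway tested 16 were called lower and none higher (72.7% called, against 15.8% of all genes and 25.8% of the 8685 genes averaging 10 CPM or more), and their median log2 fold change was -0.42. GPI, which converts glucose 6-phosphate to fructose 6-phosphate, had 319, 381 and 428 CPM in numbers 1 and 2, against 593, 794 and 980 CPM in numbers 3 and 4 (log2 fold change -1.06, SE 0.10, adjusted p = 5.5e-08). The lowest library of numbers 3 and 4, romidepsin replicate 3, was above every library of numbers 1 and 2. ALDOC, a fructose-bisphosphate aldolase, had 29.1, 38.2 and 60.7 CPM in numbers 1 and 2 and 76.7, 116 and 141 CPM in numbers 3 and 4 (-1.49, SE 0.10, adjusted p = 1.2e-11). HK1, the hexokinase that opens the pathway, had 209, 246 and 277 CPM in numbers 1 and 2, against 322, 385 and 417 CPM in numbers 3 and 4 (-0.64, SE 0.08). LDHA, which turns pyruvate to lactate, had 1358, 1495 and 1795 CPM in numbers 1 and 2 and 2036, 2398 and 2557 CPM in numbers 3 and 4 (-0.63, SE 0.08). Neither HK1 nor LDHA overlapped between the sets. PFKFB4, which makes the activator of phosphofructokinase, was lower by -1.66 (SE 0.44, adjusted p = 0.034), a call that 8 of the 13 fits with a library left out did not make. The mean level of the list, in log2 CPM centred on each gene's mean, lay between -0.46 and -0.14 in numbers 1 and 2 and between 0.02 and 0.43 in numbers 3 and 4, with no overlap.

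Hypoxia targets outside glycolysis were lower too: 11 of 19 tested were called lower and none higher, with a median of -0.79. The share called was 57.9%, against 15.8% of all genes and 25.8% of those averaging 10 CPM or more. Without chaetocin replicate 3, 12 were called lower, where 8.70% of all genes were. P4HA1, a collagen prolyl hydroxylase subunit, had 144, 175 and 214 CPM in numbers 1 and 2, against 287, 346 and 405 CPM in numbers 3 and 4 (-0.95, SE 0.10, adjusted p = 4.1e-07). BNIP3, a mitophagy receptor, had 21.7, 27.1 and 44.6 CPM in numbers 1 and 2 and 52.6, 62.4 and 97.7 CPM in numbers 3 and 4 (-1.27, SE 0.16, adjusted p = 1.0e-04). Both sets of values stayed apart, as did those of the related BNIP3L (-0.96, SE 0.10). ANKRD37, a small ankyrin-repeat protein, was lower by -1.39 (SE 0.23) and MXI1, a MYC antagonist, by -0.90 (SE 0.14), each with overlapping libraries. The list level overlapped between the sets: DMSO replicate 1 was the highest library of numbers 1 and 2 at 0.16, and chaetocin replicate 3 the lowest of numbers 3 and 4 at -0.08.

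The promoters of 5 of these genes are shown because the genes were lower together and the core motif of hypoxia-inducible factors, ACGTG, can be read in them. Each sequence is the 250 bases before the gene's start, from RefSeq on GRCh38.p14, written 5′ to 3′ on the gene's strand, and the capitals mark ACGTG and its reverse complement CACGT, which overlap as CACGTG. The positions are chr17:28576896-28577145 on the minus strand for ALDOC, chr19:34364742-34364991 on the plus strand for GPI, chr10:73096867-73097116 on the minus strand for P4HA1, chr10:131981924-131982173 on the minus strand for BNIP3 and chr4:185396591-185396840 on the plus strand for ANKRD37.
ALDOC: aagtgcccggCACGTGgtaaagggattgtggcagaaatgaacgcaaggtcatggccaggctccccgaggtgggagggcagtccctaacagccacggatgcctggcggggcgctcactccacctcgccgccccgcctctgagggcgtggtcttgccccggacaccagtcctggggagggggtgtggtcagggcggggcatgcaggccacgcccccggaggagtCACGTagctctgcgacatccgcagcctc
GPI: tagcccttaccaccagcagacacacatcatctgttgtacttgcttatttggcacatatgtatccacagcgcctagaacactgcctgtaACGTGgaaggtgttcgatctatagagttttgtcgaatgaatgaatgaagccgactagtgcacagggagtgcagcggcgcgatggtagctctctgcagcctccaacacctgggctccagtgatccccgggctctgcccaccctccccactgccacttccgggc
P4HA1: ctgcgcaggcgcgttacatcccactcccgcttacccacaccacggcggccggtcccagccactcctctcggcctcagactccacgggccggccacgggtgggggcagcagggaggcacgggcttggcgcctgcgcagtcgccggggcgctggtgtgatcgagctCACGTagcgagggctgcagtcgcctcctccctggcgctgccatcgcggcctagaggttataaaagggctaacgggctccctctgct
BNIP3: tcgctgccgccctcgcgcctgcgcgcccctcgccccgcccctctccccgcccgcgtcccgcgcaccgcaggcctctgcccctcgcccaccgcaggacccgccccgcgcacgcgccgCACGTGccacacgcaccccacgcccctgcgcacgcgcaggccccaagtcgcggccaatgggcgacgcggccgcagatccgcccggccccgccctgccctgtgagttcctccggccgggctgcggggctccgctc
ANKRD37: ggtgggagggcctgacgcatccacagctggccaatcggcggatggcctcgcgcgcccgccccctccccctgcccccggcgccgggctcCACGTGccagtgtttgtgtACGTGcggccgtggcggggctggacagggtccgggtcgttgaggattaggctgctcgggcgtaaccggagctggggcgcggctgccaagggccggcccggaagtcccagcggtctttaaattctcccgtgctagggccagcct
The ALDOC and ANKRD37 windows each hold a CACGTG and a further match, BNIP3 holds a single CACGTG, and GPI and P4HA1 hold 1 match each. Of 41 tested genes of both lists 37 matched an entry of the promoter table, and 29 of their 67 entries held the motif on either strand (43.3%). Among the 27 genes called lower 23 matched, and 19 of their 44 entries held it (43.2%). Over all 35116 entries of the table the share was 18.5%, and over those of the genes tested that matched it was 22.1%. These shares describe letters in a window and not binding. The 5 genes were picked with the motif in view, so its presence in them was fixed beforehand. Genes called lower held it about as often as all tested genes of the lists. Its part in the set difference was not tested.

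Immediate early genes were lower in numbers 1 and 2. Of 23 tested 9 were called lower and none higher (39.1% called, against 15.8% of all genes, of which 8.07% were lower), and the median was -0.37. The libraries of 7 members did not overlap, all lower, against 3.23% of all genes. EGR1, a zinc-finger factor induced by growth signals, had 3.74, 4.45 and 6.96 CPM in numbers 1 and 2, against 7.74, 9.12 and 18.7 CPM in numbers 3 and 4 (log2 fold change -1.16, SE 0.20, adjusted p = 1.1e-04). Its highest library in each set was a chaetocin one, replicate 1 and replicate 3. The list level ran from -0.47 to -0.15 in numbers 1 and 2 and from 0.03 to 0.58 in numbers 3 and 4, without overlap. ATF3, a stress-induced factor of the ATF4 list, was lower by -1.30 (SE 0.32) at 0.750 to 1.65 CPM in numbers 1 and 2 and 2.41 to 4.44 CPM in numbers 3 and 4.

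The cell cycle lists differed from each other. Inhibitors of the cycle and quiescence-linked genes were lower in numbers 1 and 2, 10 of 21 tested against 1 called higher (52.4% called, against 15.8% of all genes and 25.8% of those averaging 10 CPM or more), with a median of -0.47. Without F5446 replicate 2, the only F5446 library of numbers 1 and 2, the median was -0.27. CDKN1B, the inhibitor p27, had 16.03, 18.9 and 23.4 CPM in numbers 1 and 2 and 24.2, 42.8 and 54.6 CPM in numbers 3 and 4 (log2 fold change -1.02, SE 0.15, adjusted p = 9.8e-05). Its sets did not overlap, although the margin was narrow. BTG1 (-0.70, SE 0.10) and TOB1 (-0.45, SE 0.09), both antiproliferative, were lower without overlap. Mitotic and spindle genes were also lower, by less: 15 of 45 were called lower and 1 higher (35.6% called, against 25.8% of genes averaging 10 CPM or more), with a median of -0.16. KIF2C, a microtubule-depolymerizing kinesin, had 75.5, 88.0 and 93.7 CPM in numbers 1 and 2, against 110, 135 and 146 CPM in numbers 3 and 4 (-0.54, SE 0.08). KIF20A, a cytokinesis kinesin (-0.44, SE 0.08), ANLN, a scaffold of the contractile ring (-0.44, SE 0.07), and CCNB2, a mitotic cyclin (-0.44, SE 0.08), were lower, while CENPE, a kinetochore motor, was the member called higher (0.24, SE 0.07), a call lost without either DMSO library (adjusted p = 0.063 and 0.070).

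Genes of the G1/S transition and replication were split, 5 called higher and 6 lower of 46, with a median of -0.01. Their 23.9% called lay between the 15.8% of all genes and the 25.8% of those averaging 10 CPM or more. CCNE1 (0.54, SE 0.13) and CCNE2 (0.44, SE 0.12), the cyclins that drive entry into S phase, CCND2, a G1 cyclin (0.44, SE 0.11), and POLA1, the catalytic subunit of DNA polymerase alpha (0.43, SE 0.10), were higher in numbers 1 and 2. CDT1, the licensing factor (-0.52, SE 0.09), and RRM2, the small subunit of ribonucleotide reductase (-0.30, SE 0.08), were lower. The libraries overlapped for each of these 6 genes. CDT1, for instance, had 116 to 169 CPM in numbers 1 and 2 and 159 to 225 CPM in numbers 3 and 4. Replication-dependent histone genes were split as well, 9 higher and 9 lower of 56 (32.1% called), with HIST1H2AK at 0.70 (SE 0.10) and HIST1H1E at -0.48 (SE 0.08). Many histone genes are near-identical, which makes their counts uncertain.

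**Figure D2:**
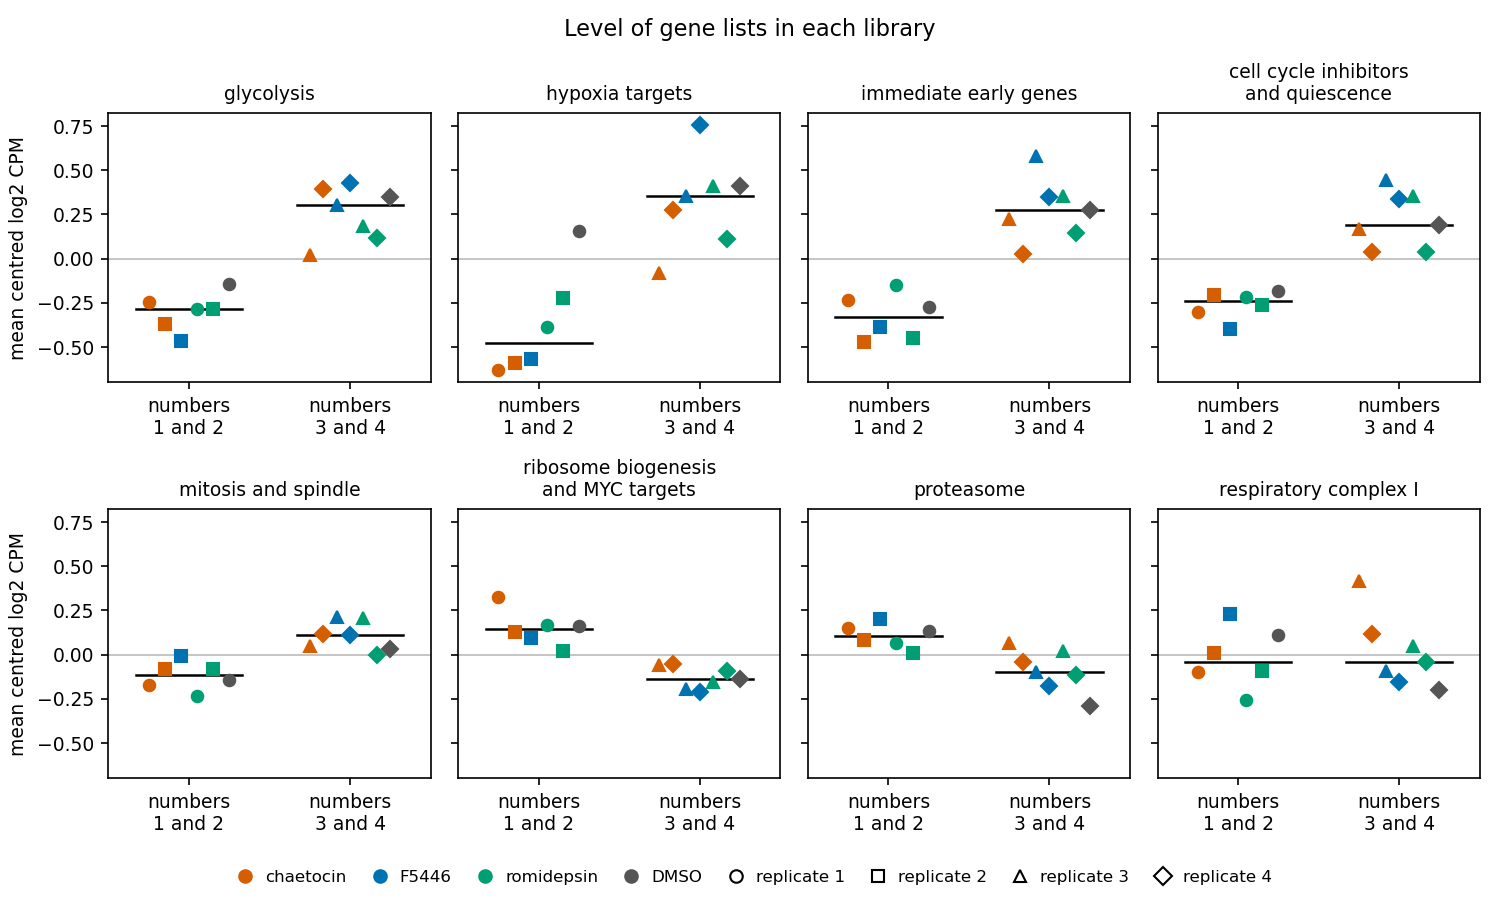
Level of 8 gene lists in each library, as the mean over members of log2 CPM centred on the gene's mean, with numbers 1 and 2 at the left, numbers 3 and 4 at the right and the set median as a bar. Glycolysis, immediate early genes, inhibitors and quiescence, and mitosis are lower in numbers 1 and 2 and ribosome biogenesis is higher, all without overlap. For mitosis the sets nearly touch, at -0.0066 for F5446 replicate 2 and -0.0025 for romidepsin replicate 4. Complex I overlaps throughout.

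Ribosome biogenesis was higher in numbers 1 and 2. Of 35 genes of this list, which includes targets of MYC, 18 were called higher and none lower (51.4% called, against 15.8% of all genes, of which 7.69% were higher), and the median was 0.32. RRS1, a ribosome assembly regulator, had 66.9, 81.3 and 109 CPM in numbers 1 and 2, against 48.6, 53.8 and 57.0 CPM in numbers 3 and 4 (log2 fold change 0.62, SE 0.09, adjusted p = 1.3e-05). NOP56, a core protein of box C/D ribonucleoproteins, had 200, 227 and 244 CPM in numbers 1 and 2 and 138, 162 and 183 CPM in numbers 3 and 4 (0.48, SE 0.07, adjusted p = 3.5e-05). UTP20 (0.65, SE 0.10) and UTP4 (0.53, SE 0.09), both of the small-subunit processome, were higher. None of these 4 overlapped between the sets. The list level was 0.02 to 0.33 in numbers 1 and 2 and -0.21 to -0.05 in numbers 3 and 4.

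Of 31 proteasome subunits 10 were called higher and none lower, with a median of 0.21. The 32.3% called is not far from the 25.8% of genes averaging 10 CPM or more, of either direction, and the list level overlapped between the sets, at 0.01 to 0.20 in numbers 1 and 2 and -0.29 to 0.07 in numbers 3 and 4. PSMC2, an ATPase of the regulatory particle, had 171, 184 and 226 CPM in numbers 1 and 2, against 97.7, 136 and 152 CPM in numbers 3 and 4 (0.52, SE 0.08, adjusted p = 5.0e-05), and PSMC4, another of the ATPases, was higher by 0.40 (SE 0.08). Aminoacyl-tRNA synthetases had 7 members higher and 2 lower of 20 (45% called), with a median of 0.19. Without chaetocin replicate 3 the count was 9 higher and none lower. WARS, the tryptophanyl enzyme, which interferon gamma also induces, was higher by 0.46 (SE 0.09) and IARS, the isoleucyl enzyme, by 0.33 (SE 0.09). Translation factors were split, 5 higher and 6 lower of 33 (33.3% called). Besides EIF5, EIF1AX was higher (0.38, SE 0.07), while PABPC1, the poly(A)-binding protein, had 2729, 2810 and 2975 CPM in numbers 1 and 2 and 3476, 3564 and 3655 CPM in numbers 3 and 4 (-0.33, SE 0.07, adjusted p = 0.0014). Cytosolic ribosomal proteins had 5 of 78 lower and none higher, 6.41% called, which is under the 15.8% of all genes.

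Chaetocin replicate 3 stood apart by its mitochondrial share, so tests of mitochondrially encoded transcripts without it are a description and not separate support. Such transcripts passed the test as higher in numbers 1 and 2 when that library was left out, and not with it. These genes took 10.8 ± 1.41% of counts in numbers 1 and 2 (SD, n = 6) and 7.95 ± 3.69% in numbers 3 and 4 (SD, n = 7), a difference that an exact permutation test within treatments did not separate (two-sided p = 0.125, adjusted over 4 measures p = 0.50). Without chaetocin replicate 3 the share in numbers 3 and 4 was 6.63 ± 1.29% (SD, n = 6), and the exact permutation p was 0.00926, the smallest that 108 arrangements allow (adjusted p = 0.037). The highest of these 6 libraries, romidepsin replicate 4 at 8.90%, was just above the lowest of numbers 1 and 2, F5446 replicate 2 at 8.75%. The other measures did not pass with all libraries. Without chaetocin replicate 3 the share of the 100 most abundant genes also passed (exact permutation, adjusted p = 0.037). It was 29.1 ± 1.39% in numbers 1 and 2 (SD, n = 6) and 26.5 ± 0.940% in numbers 3 and 4 (SD, n = 6). That library stood apart by this share too. Mitochondrially encoded genes such as MT-CO1 are among the most abundant, so this share is not separate from the mitochondrial one.

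Gene by gene, edgeR with all libraries called none of the 13 mitochondrially encoded protein genes, against 15.8% of all genes tested. Their median was 0.51, and 12 were above 0. Limma-voom called 7 of the 13 higher and edgeR without robust estimation 5. Over all 17252 genes those fits called 1354 and 1306 higher. Without chaetocin replicate 3, 12 of 13 were called higher, with a median of 0.88, where 8.32% of all genes were called higher. MT-CYB, the cytochrome b of complex III, had 3328, 5240 and 5437 CPM in numbers 1 and 2 and 1588, 2378 and 5425 CPM in numbers 3 and 4, where the highest was chaetocin replicate 3 (0.76, SE 0.27, adjusted p = 0.11; 1.01 and 0.0031 without that library). MT-CO3, a core subunit of cytochrome c oxidase, had 5116, 7226 and 7823 CPM in numbers 1 and 2, against 2580, 3232 and 8769 CPM in numbers 3 and 4 (0.72, SE 0.28, adjusted p = 0.13; 1.02 and 1.1e-06 without it). MT-ND5 of complex I had 13015, 15510 and 20147 CPM in numbers 1 and 2 and 8431, 11876 and 35409 CPM in numbers 3 and 4 (0.14, SE 0.33, adjusted p = 0.85; 0.50 and 0.0041 without it). MT-ND6, which lies on the other strand, was the gene not called either way (-0.14, and 0.03 without that library); the strand setting of the counting is not known. Nuclear copies of mitochondrial sequence exist, so these counts can be shared with them.

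**Figure D3:**
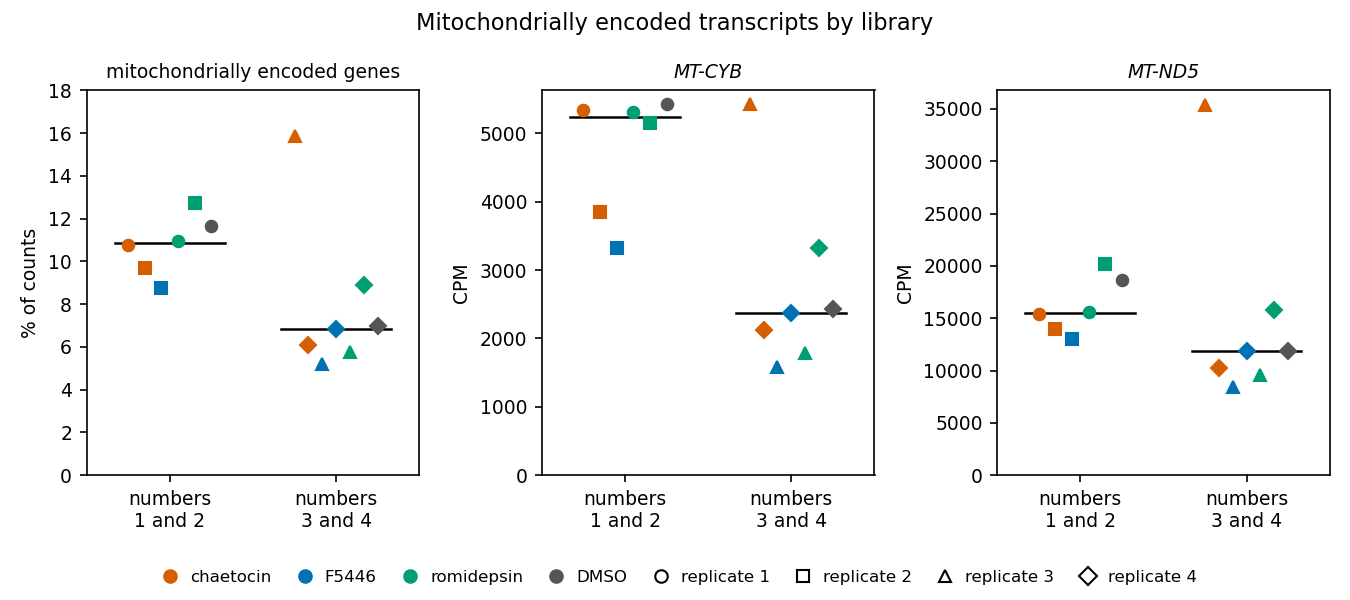
Share of counts from mitochondrially encoded genes, in percent, and CPM of MT-CYB and MT-ND5 in each library, numbers 1 and 2 at the left and numbers 3 and 4 at the right, with the set median as a bar. Chaetocin replicate 3, at 15.9% of counts, lies above every library of numbers 1 and 2 for the share and for MT-ND5, and beside the highest of them for MT-CYB; the medians of numbers 1 and 2 are the higher ones in all 3 panels.

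Nuclear genes of the respiratory chain were seldom called, 8.33% of complex I, 7.69% of complexes II and III and 11.1% of ATP synthase, against 15.8% of all genes. Of complex I 1 of 36 was called higher and 2 lower, of complexes II and III 0 higher and 1 lower of 13, of cytochrome c oxidase none of 12 and of ATP synthase 1 higher and 1 lower of 18, with medians between -0.09 and 0.01. NDUFV1, the flavoprotein of complex I, was lower (131, 145 and 154 CPM in numbers 1 and 2, against 169, 187 and 201 CPM in numbers 3 and 4; -0.37, SE 0.07) and NDUFB9, an accessory subunit, was higher (121, 147 and 179 CPM in numbers 1 and 2, against 87.0, 115 and 121 CPM in numbers 3 and 4; 0.47, SE 0.09). The medians were split by treatment. The complex I median of the set difference was -0.35 within chaetocin, 0.34 within F5446, -0.11 within romidepsin and 0.37 within DMSO. Cytosolic ribosomal proteins gave -0.38, 0.26, -0.15 and 0.21 in the same order. Without chaetocin replicate 3 the chaetocin medians were -0.13 for complex I and -0.30 for cytosolic ribosomal proteins. Over genes of at least 10 CPM the Spearman correlation of transcript length with the set difference had the same division, 0.13 within chaetocin, -0.26 within F5446, 0.13 within romidepsin and -0.26 within DMSO (8677 genes; genes are not independent replicates). The part of transcript length in these medians was not tested, and the F5446 and DMSO values rest on a single library of numbers 1 and 2 each. Mitochondrial ribosomal proteins were called higher in 15 of 75 with none lower, and their 20% called lies between the 15.8% of all genes and the 25.8% of those averaging 10 CPM or more; MRPL32 was among them (0.66, SE 0.11). Of 22 genes of mitochondrial transcription and genome upkeep 3 were higher and 1 lower (18.2% called). POLG, the mitochondrial DNA polymerase, was the lower one (-0.59, SE 0.09) and MTERF1, a mitochondrial transcription termination factor, was higher (0.52, SE 0.14).

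**Figure D4:**
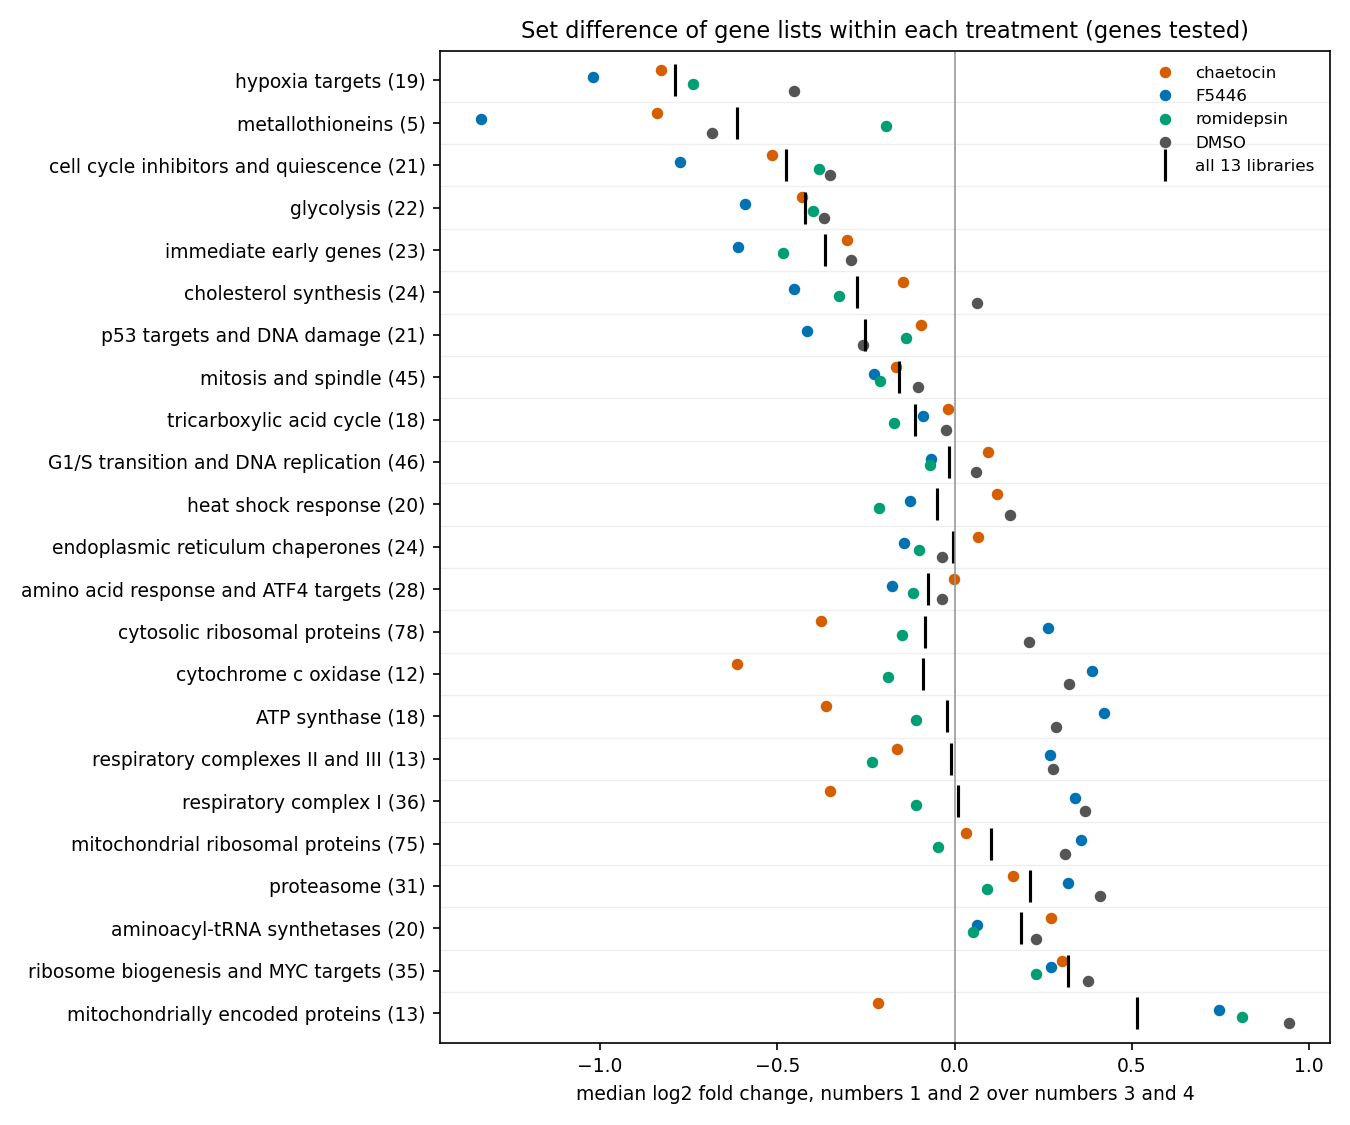
Median log2 fold change of numbers 1 and 2 over numbers 3 and 4 for 23 lists, within each treatment (dots) and over all libraries (bars), with the number of genes tested in brackets. Hypoxia targets, glycolysis, quiescence genes and immediate early genes lie left of 0 in all 4 treatments and ribosome biogenesis and the proteasome right of 0, whereas the respiratory complexes and cytosolic ribosomal proteins lie left for chaetocin and romidepsin and right for F5446 and DMSO.

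Of 18 genes of the tricarboxylic acid cycle 6 were called lower and 1 higher in numbers 1 and 2 (38.9% called), with a median of -0.11. The share was 15.8% over all genes and 25.8% over those averaging 10 CPM or more, and the list level overlapped between the sets. CS, citrate synthase, had 205, 224 and 245 CPM in numbers 1 and 2 and 248, 280 and 320 CPM in numbers 3 and 4 (-0.32, SE 0.07, adjusted p = 0.0017), and SUCLG2, a succinyl-CoA ligase subunit (-0.51, SE 0.09), and MDH2, malate dehydrogenase (-0.25, SE 0.07), were lower, all without overlap. Of 24 cholesterol synthesis genes 8 were lower and 1 higher (37.5% called), with a median of -0.27 and overlapping list levels. FDFT1, squalene synthase, had 307, 357 and 391 CPM in numbers 1 and 2, against 441, 550 and 647 CPM in numbers 3 and 4 (-0.60, SE 0.09, adjusted p = 1.6e-05). SREBF2, the factor that drives the pathway (-0.31, SE 0.07), and SQLE, squalene epoxidase (-0.42, SE 0.09), were lower. The cholesterol median was 0.06 within DMSO and below 0 within each of the other treatments. Within numbers 1 and 2 the list level divided by replicate number. It was 0.13, 0.03 and 0.10 in replicate 1 of chaetocin, romidepsin and DMSO. In replicate 2 of chaetocin, F5446 and romidepsin it was -0.29, -0.26 and -0.32, against -0.06 to 0.31 in numbers 3 and 4. In this set DMSO has only replicate 1 and F5446 only replicate 2, so for them treatment and number cannot be told apart. Fatty acid synthesis had 3 of 16 lower and none higher (18.8% called), and fatty acid oxidation 1 higher and 1 lower of 16 (12.5% called). The fatty acid synthesis level divided by number too, at 0.08, 0.05 and -0.01 in replicate 1 of chaetocin, romidepsin and DMSO. It was -0.15, -0.19 and -0.25 in replicate 2 of chaetocin, F5446 and romidepsin.

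Stress programmes were mostly mixed. Shares called were 25% for heat shock, 33.3% for endoplasmic reticulum chaperones, 25% for the amino acid response and 25.9% for oxidative stress. They were 47.6% for p53 targets, 40% for the metallothionein list, 29.4% for lysosome and autophagy and 17.4% for apoptosis regulators. All genes gave 15.8%, and those averaging 10 CPM or more gave 25.8%. Heat shock genes had 3 higher and 2 lower of 20; HSPH1, a large heat shock protein (0.40, SE 0.09), and DNAJB6, a co-chaperone (0.50, SE 0.09), were higher and HSPB1, a small heat shock protein (-0.65, SE 0.14), was lower. Endoplasmic reticulum chaperones had 2 higher and 6 lower of 24, with HSP90B1 at -0.40 (SE 0.08) and the translocon subunit SEC61A1 at 0.38 (SE 0.08). In the amino acid response 3 were higher and 4 lower of 28: SLC7A5, an amino acid transporter, was higher (0.50, SE 0.10), and VLDLR (-1.13, SE 0.16) and DDIT3, the factor CHOP (-0.92, SE 0.20), were lower. Oxidative stress genes had 2 higher and 5 lower of 27, among them the factor NFE2L2 itself (-0.50, SE 0.09) and the ferritin light chain FTL (-0.34, SE 0.08). Targets of p53 had 8 lower and 2 higher of 21, with a median of -0.25; CCNG1 was lower (-0.57, SE 0.10), and BAX, a proapoptotic BCL2 relative (0.45, SE 0.12), and AEN, a nuclease (0.65, SE 0.13), were higher. The 5 metallothionein-list genes tested had 2 lower: MT2A had 40.8, 43.6 and 46.9 CPM in numbers 1 and 2 and 42.1, 68.6 and 112 CPM in numbers 3 and 4 (-0.61, SE 0.15), and the zinc exporter SLC30A1 had -1.08 (SE 0.23), a call lost without DMSO replicate 1 (adjusted p = 0.052). The mitochondrial unfolded protein response had no call among 14, lysosome and autophagy 4 higher and 6 lower of 34, and apoptosis regulators 4 higher and none lower of 23.

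Genes of the T cell receptor complex and its signalling were lower in numbers 1 and 2, 10 of 22 with 1 higher and a median of -0.27. The share called was 50%, against 15.8% of all genes and 25.8% of those averaging 10 CPM or more. TRAC, the constant region of the receptor's alpha chain, had 125, 160 and 198 CPM in numbers 1 and 2, against 256, 292 and 320 CPM in numbers 3 and 4 (log2 fold change -0.83, SE 0.09, adjusted p = 2.9e-07), and the sets did not overlap. CD4, the coreceptor, had 134, 184 and 201 CPM in numbers 1 and 2 and 225, 244 and 269 CPM in numbers 3 and 4 (-0.44, SE 0.08). CD6, a costimulatory receptor (-0.48, SE 0.08), and CD3E, a signalling chain (-0.29, SE 0.07), were lower. TOX, a factor raised in Sézary cells, had 86.5 to 124 CPM in numbers 1 and 2 and 134 to 167 CPM in numbers 3 and 4 (-0.58, SE 0.08), and GATA3, the factor of type 2 helper cells, was lower by -0.63 (SE 0.14), with chaetocin replicate 3 at 1694 CPM and the rest of numbers 3 and 4 starting at 702 CPM. CD69, an early activation marker, was lower (-0.93, SE 0.15), and IL10 (0.63, SE 0.11), EOMES (0.81, SE 0.12) and CCR7, a chemokine receptor for entry into lymph nodes (0.40, SE 0.08), were higher. Among the activation and cytokine genes 4 were higher and 2 lower of 24 (25% called).

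Interferon-stimulated genes had 8 higher and 4 lower of 44, with a median of 0.15. Shares called were 27.3% for this list, 32.1% for antigen presentation, 21.1% for NF-κB targets, 23.1% for cytotoxic effectors and 38.9% for genes of Sézary cells. All genes gave 15.8%, and those averaging 10 CPM or more gave 25.8%. Besides CMPK2, XAF1, an apoptosis-promoting factor (0.73, SE 0.11), and GBP1, a guanylate-binding protein (0.49, SE 0.09), were higher, and IFITM1, an antiviral membrane protein (-0.37, SE 0.08), and OAS3, a sensor of double-stranded RNA (-0.50, SE 0.09), were lower. In antigen presentation 5 were higher and 4 lower of 28: CIITA, the coactivator of class II genes, had 104, 117 and 136 CPM in numbers 1 and 2 and 70.9, 76.7 and 88.8 CPM in numbers 3 and 4 (0.59, SE 0.08), and HLA-E, a class I gene whose reads can be shared with its relatives, was lower (-0.78, SE 0.11). Targets of NF-κB had 3 higher and 1 lower of 19, the lower one being the inhibitor TNFAIP3 (-0.79, SE 0.13). Cytotoxic effectors had 1 higher and 2 lower of 13, and genes of Sézary cells 3 higher and 4 lower of 18.

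The list of H3K9 methylation machinery holds methyltransferases, among them the target of chaetocin, and also demethylases, which act the other way. With treatment held constant it had 7 of 24 lower and 1 higher in numbers 1 and 2, with a median of -0.17. The share called was 33.3%, against 15.8% of all genes and 25.8% of those averaging 10 CPM or more. KDM3A, a hypoxia-inducible H3K9 demethylase, had 45.8, 47.5 and 70.4 CPM in numbers 1 and 2, against 90.6, 99.3 and 172 CPM in numbers 3 and 4 (log2 fold change -1.13, SE 0.17, adjusted p = 7.3e-04), and KDM4B, another, was lower by -0.70 (SE 0.09). EHMT1, a methyltransferase, went the other way, with 45.3 to 52.1 CPM in numbers 1 and 2 and 35.7 to 47.1 CPM in numbers 3 and 4. The level of this list did not overlap between the sets, at -0.16 to -0.03 in numbers 1 and 2 and 0.02 to 0.11 in numbers 3 and 4. Since it mixes both kinds of enzyme, it does not speak of the methyltransferases alone. Actin cytoskeleton and adhesion genes had 8 of 29 lower and 1 higher (31% called), and nucleotide synthesis 4 higher and 3 lower of 26 (26.9% called).

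Markers of cells other than T cells were read as whole lists. The 10 B cell markers summed to 52.6 to 76.4 CPM in numbers 1 and 2 and 76.5 to 106 CPM in numbers 3 and 4. CD79A had the highest mean of them, 46.7 CPM, and was lower in numbers 1 and 2 (-1.004, SE 0.10). MS4A1, which encodes CD20, was higher (0.54, SE 0.14), and in romidepsin replicate 2 it exceeded CD79A (33.3 against 26.3 CPM). The 12 myeloid markers summed to 139 to 220 CPM in numbers 1 and 2 and 188 to 268 CPM in numbers 3 and 4, mostly AIF1, with 10 of 12 under 1 CPM and CD68 and S100A8 at 0 in every library. The 10 epithelial markers ran from 181 to 247 CPM in numbers 1 and 2 and from 157 to 214 CPM in numbers 3 and 4, with KRT19 at 0. The 12 fibroblast markers ran from 280 to 398 CPM in numbers 1 and 2 and from 290 to 374 CPM in numbers 3 and 4, mostly FBN1, with 7 under 1 CPM. The 10 natural killer markers stayed at or under 12.2 CPM in numbers 1 and 2 and 8.78 CPM in numbers 3 and 4, and the 10 erythroid markers at or under 0.471 CPM and 0.350 CPM. Their part in the differences above was not tested. Among 12 nuclear retained and RNA polymerase III transcripts 3 were higher and none lower, with a median of 0.08 and overlapping levels; without chaetocin replicate 3, 4 were higher, the median was 0.49, and the levels of the sets did not overlap. Among 16 snoRNA host genes 3 were higher and 1 lower. Each of these RNA lists had 25% called, against 15.8% of all genes and 25.8% of those averaging 10 CPM or more. The part of these RNA classes in the differences above was not tested.

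The set difference was also computed within each treatment, in libraries that the treatments do not share, with no test for a single treatment. Within DMSO it is 1 library against 1 and within F5446 1 against 2, which cannot be told apart from the spread between libraries. Of the 2719 called genes 2546 (93.6%) had the same sign in all 4 treatments, against 33.9% of all genes tested; these libraries also made the calls, so this share is a description. Over the 8685 genes of at least 10 CPM the set difference within chaetocin and that within romidepsin, each 2 libraries against 2, correlated with Pearson's r = 0.67 and Spearman's rho = 0.66, and 73.6% of genes had the same sign. F5446 and DMSO gave r = 0.69, and the other 4 pairs of treatments 0.49 to 0.55. Over all 17252 genes, low ones included, rho was 0.22 to 0.32. For each of the 13 libraries the most similar library of another treatment came from its own set, and for 7 of 13 it also had the same number. On the first principal component of these 8685 genes, with 37.6% of the variance, the libraries of numbers 1 and 2 lay at -21.4 to -10.2 and those of numbers 3 and 4 at 5.23 to 17.0, and without chaetocin replicate 3 the component held 42.6%.

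**Figure D5:**
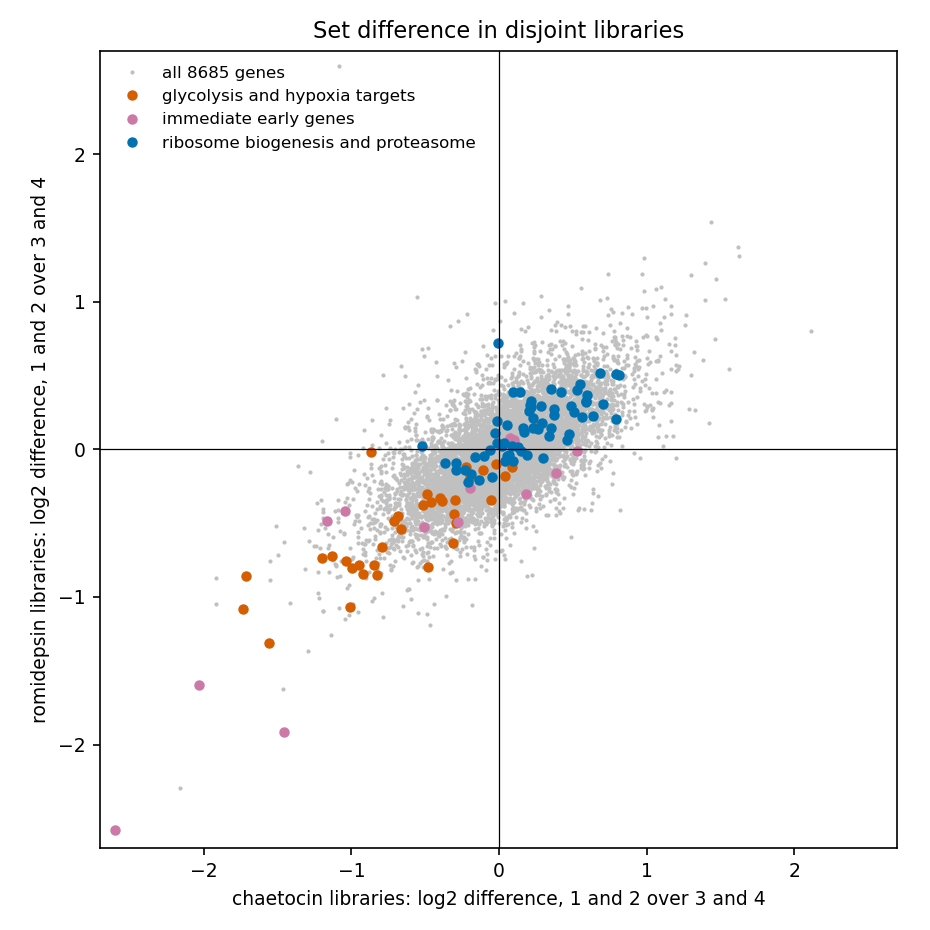
Log2 difference of numbers 1 and 2 over numbers 3 and 4 within romidepsin libraries (vertical) against that within chaetocin libraries (horizontal) for 8685 genes of at least 10 CPM, with points beyond the axes drawn at the edge. Glycolysis and hypoxia targets and several immediate early genes lie at the lower left and most ribosome biogenesis and proteasome genes at the upper right, in a cloud with r = 0.67.

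A test of whether the set difference itself differed between chaetocin and romidepsin called no gene in edgeR, with 696 at an unadjusted p under 0.05, and none in DESeq2 (761 unadjusted) or limma-voom (728 unadjusted). Only these treatments hold 2 libraries in each set, so F5446 and DMSO were not tested in this way. Chance alone would give about 863 genes an unadjusted p under 0.05. With 2 libraries in each group the test can miss real differences, so the lack of calls does not show that the treatments were alike. Without chaetocin replicate 3 it called 1 gene of 17027 (0.00587%), higher in numbers 1 and 2 for chaetocin relative to romidepsin, the low pseudogene GLUD1P3 at a mean of 2.23 CPM, named after its values were seen. Without chaetocin replicate 4, where chaetocin replicate 3 alone stands for chaetocin in numbers 3 and 4, it called 86.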

How the data were processed

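RNA sequencing was done on total RNA of HuT78 cells. Per the labels' protocols, RNA came from a column kit with DNase treatment and libraries from a kit made for human RNA that may be degraded. Per the submitters' processing notes, the authors used bcl2fastq 2.20.0.422, cutadapt 1.8.1 and HTSeq 0.6.1 on hg19 and deposited raw counts per gene, with no normalization. No aligner, strand setting or annotation release is given in the sources used here, and reads of antisense or overlapping genes may therefore be mixed. The treatment tags of the F5446 libraries end in different digits; the titles, which all give F5446, were used.

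Counts were fitted with edgeR 4.0.16 in R 4.3.3 (TMM, filter by expression, robust quasi-likelihood test) with treatment and number set as terms. Tests were two-sided with Benjamini-Hochberg adjustment over all genes tested and a threshold of 0.05. A fold change is numbers 1 and 2 over numbers 3 and 4 in log2, "called" means past the threshold, SE is the fold change over the root of F, and levels used a prior count of 2. Single values per library had exact permutation tests within treatments (216 arrangements, smallest p 0.00463). Libraries held 19901052 to 30816188 counts. The number sets, members and 50 lists were chosen with earlier results of these data known, so their p-values and counts are not independent support for the sets.

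Named genes were: the 15 largest changes each way among genes called with and without chaetocin replicate 3, of at least 5 CPM and 1 sign in all 4 treatments; from each list up to 4 called members with the smallest p each way; the 13 mitochondrially encoded protein genes; and CD3E, CD4, TRAC, CD7 and TOX. Not all are printed. Alternatives were DESeq2 1.42.0, limma-voom 3.58.1, other scalings, filters, covariates, a minimum fold, a block for the replicate number and omission of each library in turn; with 1 DMSO library left, its spread was taken to be that of the others. The pipeline was tested on simulated data. Transcript length came from GENCODE transcripts and promoters from RefSeq on GRCh38.p14. Figures used matplotlib 3.10.9.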

Additional observations from a re-analysis of the deposited data

Results flagged for a closer look

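Of 408 groups of library values checked for a library far from the others of its set, 32 had one. Chance would give about 20 if the groups were independent, but related genes, such as the mitochondrially encoded ones, move together. The sets also mix treatments, and most genes checked were chosen as called, so 32 cannot be weighed against 20. Of the 32, 20 were chaetocin replicate 3. That library held 15.9% mitochondrially encoded counts, against 5.22 to 8.90% in the rest of numbers 3 and 4, and 36.7% in its 100 most abundant genes, against 25.1 to 27.8%. It had 30465 CPM of MT-CO1, 18665 of MT-CO2, 8769 of MT-CO3, 9014 of MT-ATP6, 16236 of MT-ND1, 15103 of MT-ND2, 1530 of MT-ND3, 33399 of MT-ND4, 2482 of MT-ND4L and 35409 of MT-ND5, each the highest of numbers 3 and 4. It was also the highest of numbers 3 and 4 for EGR1 at 18.7 CPM, EIF3D at 557, GATA3 at 1694, MDH2 at 719 and SREBF1 at 121, and the lowest for MTERF1 at 6.63. Its list level was -0.56 for cytotoxic effectors and 0.12 for the mitochondrial unfolded protein response.

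Within numbers 3 and 4 the other libraries that stood apart were romidepsin replicate 4 for DIO2 (28.2 CPM), IRF4 (268 CPM) and the metallothionein level (-0.98), romidepsin replicate 3 for the interferon level (0.23), F5446 replicate 3 for SLC7A11 (15.7 CPM), F5446 replicate 4 for the natural killer marker level (-1.07) and DMSO replicate 4 for TFAM (96.1 CPM). Within numbers 1 and 2 they were chaetocin replicate 1 for CD4 (134 CPM), EGR1 (6.96 CPM), PSMC2 (226 CPM) and the NF-κB level (0.20), and romidepsin replicate 1 for SREBF2 (285 CPM).

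The level of T cell activation and cytokine genes was higher in numbers 1 and 2 by 0.35 in log2 within chaetocin and lower, at -0.18, within romidepsin, with every library on its side. Fibroblast markers likewise gave 0.48 within chaetocin and -0.43 within romidepsin. These differences were not tested.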

How the results depend on the processing

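The number of genes called (2719) lay between 2581 and 3153 under DESeq2 (3153), limma-voom, RLE and upper-quartile scaling, no filter, a filter at 5 CPM, no mitochondrially encoded genes, no robust estimation, no treatment term and the mean of within-treatment differences, and between 2060 and 2898 with each library left out. With a replicate block, each number as its own term, 3064 genes were called, 2668 of them among the 2719; the numbers are not shown to pair libraries, since the differences of numbers 1 and 2 correlated between chaetocin and romidepsin (r = 0.41) but those of numbers 3 and 4 did not (r = -0.13, 0.06 and 0.10). A minimum log2 fold of 0.5 left 75 genes (28 higher, 47 lower). Added after the data were seen, RLE, DESeq2, limma-voom and the block without chaetocin replicate 3 called 2911 to 3308.

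The test between chaetocin and romidepsin called 0 to 86 genes with a library left out: 1 without chaetocin replicate 3 and 86 without chaetocin replicate 4. Without chaetocin replicate 3 the mitochondrial share differed by 4.01 percentage points (exact permutation, adjusted p = 0.037). The share of the 100 most abundant genes differed by 2.53 (exact permutation, adjusted p = 0.037). Chaetocin replicate 3 stood apart by both shares, so these values are not separate support. Of 1223 list medians recomputed 83, of 21 lists, had the other sign, 76 of them where the reported median was under 0.1 in size (complex I -0.076 to 0.050 and ATP synthase -0.149 to 0.069 with each library left out). The other 7 were T cell activation and cytokines to -0.23 and myeloid markers to -0.33 with the 5 CPM filter, natural killer markers (-0.236 to 0.0784 with each library left out) to 0.0784 without chaetocin replicate 3, and B cell markers (-0.336 to 0.245) to -0.336 without that library, -0.19 with the filter, -0.20 with limma-voom and -0.35 without the treatment term. MT-ND6 ranged from -0.253 to 0.0332 with each library left out, the positive value without chaetocin replicate 3. Of 3757 values of single genes 243 gained or lost the call. The causes were not tested. Low counts limit lists of other cell types. Under 1 CPM were 10 of 12 myeloid, 8 of 10 natural killer, 7 of 12 fibroblast and all 10 erythroid markers. For B cell markers it was 5 of 10 and for epithelial markers 4 of 10.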
